A study of Homo sapiens with 8 samples.

Results

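Transcripts of 9 interleukin-1 (IL-1) family genes were followed across 8 RNA sequencing libraries. The genes are IL1A, IL1B, IL1RN, IL36A, IL36G, IL36RN, IL18, IL33 and IL37, taken by name from a table of 63241 gene rows, and all 9 were found. All libraries carry the label HSC3, a human line grown from an oral squamous carcinoma. By their labels, 4 libraries were given an siRNA against COL1A1 (written Col1a1 there; "knockdown" below) and 4 a non-targeting siRNA, si-NC ("control"). In both groups the labels give 100 pmol of siRNA, delivered by lipofection, and harvest 48 hours later. The series title asks whether loss of COL1A1 lowers epithelial-mesenchymal transition, migration and invasion. Whether the 4 libraries of a label are separate cultures is not stated. Each p-value therefore speaks of the spread among these libraries, not of a known number of cultures. That spread includes wide differences in cell type markers, given below. Library totals ran from 30684584 to 60200909 counts in knockdown and from 32242870 to 61795990 in control.

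IL-1 family cytokines are small proteins with which epithelium and leukocytes start local inflammation. Agonists bind a primary receptor chain, which then recruits an accessory chain and signals through MYD88 and IRAK kinases to NF-kB. Receptor antagonists of the family fill the primary receptor without recruiting the accessory chain. In squamous epithelium several members are made by keratinocytes themselves, often most in the suprabasal layers, and are released on injury or cut to an active form by proteases.

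The labels and the transcripts did not match in every library. COL1A1 itself, on chromosome 17 and the target of the siRNA, stood at 368, 123, 301 and 155 CPM in knockdown replicates 1 to 4, against 88.9, 8182, 476 and 689 CPM in control. CPM, the usual depth-scaled unit, is computed from each library's total. SE, here and below, is derived from the edgeR test statistic. The groups overlapped, control 1 lay below every knockdown library, and the log2 fold change was -2.97 (SE 1.3, edgeR quasi-likelihood adjusted p = 0.981) and -0.48 without control 2. Knockdown and control therefore stand throughout for libraries labelled so. The 12 keratinocyte markers, of which KRT6A, KRT14 and KRT5 were the most abundant, summed to between 1234 and 134310 CPM in knockdown and between 535 and 59284 CPM in control, with the low end in knockdown 2 and control 1. Those same 2 libraries held 97845 and 73083 CPM of 13 salivary gland markers, against at most 7.67 CPM in the other 6. Of 10 skeletal muscle markers, summed CPM was 41.1 to 44843 in knockdown and 30.8 to 142580 in control, with knockdown 2 and 4 and controls 1 and 3 above 1% of counts. Endothelial markers summed to 139 to 544 CPM in knockdown and 136 to 531 CPM in control. The 8 fibroblast markers summed to 373 to 1031 CPM in knockdown and 966 to 12349 CPM in control. The gland and muscle levels go against a pure squamous line in several libraries. Endothelial markers summed to at least 136 CPM in all 8, and the leukocyte gene PTPRC ran from 11 to 75.9 CPM over all 8. No library is therefore taken as a pure squamous line, and the source of these transcripts was not tested. In such bulk samples, fewer cells of a type and less RNA per cell cannot be told apart.

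None of the 9 genes passed the test between labels. Of these, 8 entered the fit over 21192 genes, while IL37 was too low. edgeR called 0 of the 8 at an adjusted p under 0.05, as it did for 0% of all genes tested. At an unadjusted p under 0.05 stood 3 of the 8, namely IL36A, IL36G and IL36RN, all fitted higher in knockdown, where 2.9% of tested genes stood on that side, 1.88% on the other and 4.78% on either. DESeq2 called the same 3 genes higher, where it called 0.52% of genes higher, and limma-voom called 0. With limma-voom 0 of the 8 stood at an unadjusted p under 0.05, where 4.13% of genes did. No gene of the 9 had groups that failed to overlap in CPM, where 2.35% of tested genes did. IL36A met the filter on low counts almost entirely through knockdown libraries, with 10 counts or fewer in every control library, so its place among the tested genes is not independent of its difference.

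**Figure D1:**
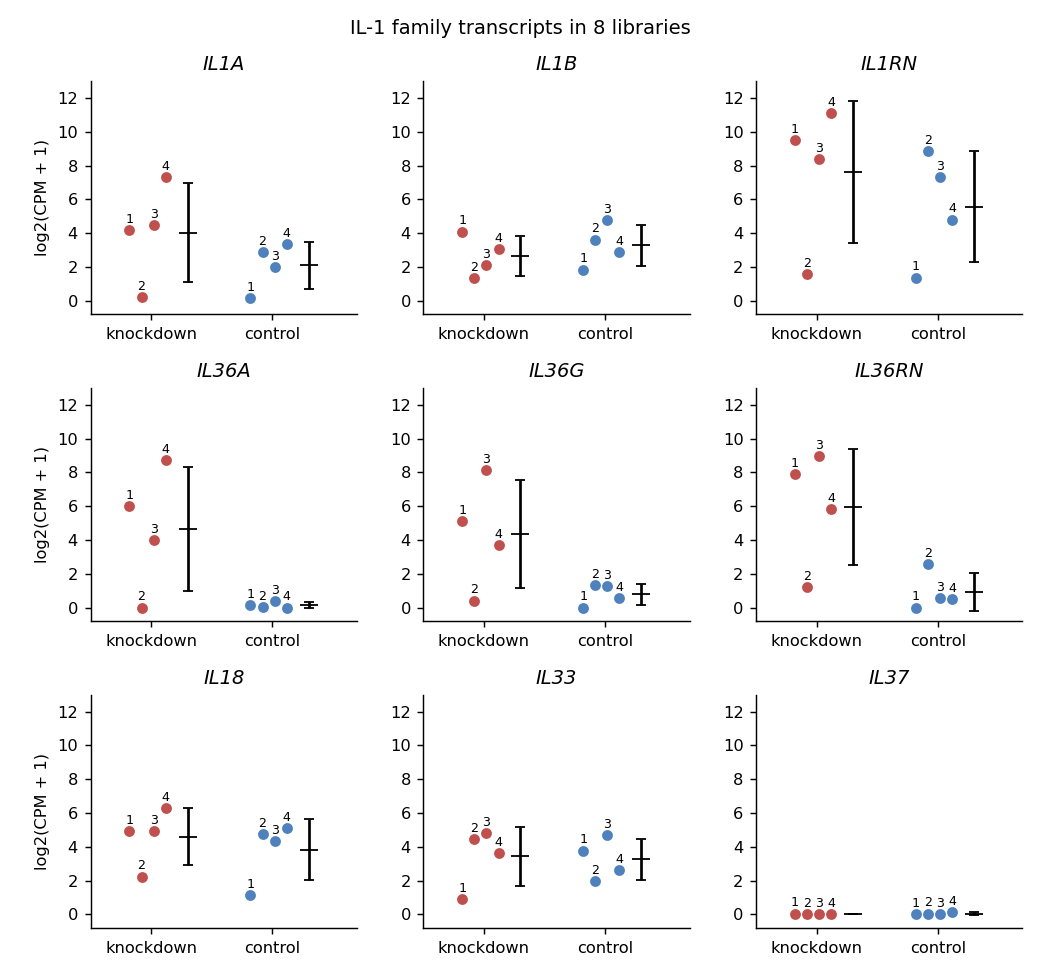
Each panel plots log2(CPM + 1) of one gene for 4 knockdown (red) and 4 control (blue) libraries, with replicate numbers above the points and the mean ± SD (n = 4) at the right of each group. All panels share one axis. Knockdown 2 and control 1 sit at the low end for IL1A, IL1RN and IL18, and the 3 IL-36 genes are at 4.85 CPM or less in control.

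The 3 genes of the IL-36 branch showed the widest separation. They lie with IL1A, IL1B, IL37 and IL1RN in one cluster on chromosome 2. IL36A runs from 113005459 to 113011072, IL36G from 112978006 to 112985658 and IL36RN from 113058638 to 113064744, all on the plus strand (GRCh38.p14). IL36A and IL36G encode the agonists IL-36 alpha and IL-36 gamma, and IL36RN the antagonist of the same receptor, whose loss of function causes generalised pustular psoriasis.

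IL36A held 63.9, 0, 14.7 and 415 CPM in knockdown replicates 1 to 4, against 0.109, 0.0324, 0.31 and 0 CPM in control. Knockdown 1, 3 and 4 were each above every control library, while knockdown 2 held no count, as control 4 did. A count of 0 allows up to 0.0978 CPM in knockdown 2 and 0.0577 CPM in control 4 (3 counts of each total). The fitted log2 fold change was 10.27 (SE 2.53, edgeR adjusted p = 0.981; DESeq2 adjusted p = 1.72e-05). Control values rest on 0 to 10 counts a library, so the size of this fold is poorly fixed, and it ran from 8.33 without knockdown 4 to 11.35 without control 3.

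IL36G held 34.2, 0.326, 278 and 12.1 CPM in knockdown, against 0, 1.49, 1.43 and 0.461 CPM in control. The order differed from that of IL36A, with knockdown 3 now highest and knockdown 4 the lowest of the 3 high libraries. Its log2 fold change was 7.13 (SE 2.09, edgeR adjusted p = 0.981; DESeq2 adjusted p = 0.00221), and 4.54 without knockdown 3.

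IL36RN held 241, 1.3, 490 and 56.6 CPM in knockdown, against 0, 4.85, 0.496 and 0.423 CPM in control. Knockdown 2 again fell among the control libraries, below control 2. The log2 fold change was 7.55 (SE 2.16, edgeR adjusted p = 0.981; DESeq2 adjusted p = 0.000848), from 6.42 without knockdown 3 to 9.80 without control 2. Across the 8 libraries IL36RN and IL36G had the most similar profiles among the 8 tested genes, apart from IL1A with IL18. The root mean square difference between centred log2(CPM + 1) profiles was 1.09 for IL36RN with IL36G and 1.03 for IL1A with IL18, against 2.12 for IL36RN with IL36A.

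Because IL36G and IL36RN varied together, the windows from 250 bases before to 50 bases after their RefSeq starts are shown 5′ to 3′ (GRCh38.p14, plus strand, chr2:112977756-112978055 and chr2:113058388-113058687). Both strands were searched for a fixed 10-base NF-kB pattern, TGANTCA (AP-1) and TTGCNNAA (C/EBP), and a match would stand in capitals. Neither window holds these letters. NF-kB sites that differ from the fixed pattern were not searched for, so an absence of NF-kB sites is not shown here or below.
IL36G: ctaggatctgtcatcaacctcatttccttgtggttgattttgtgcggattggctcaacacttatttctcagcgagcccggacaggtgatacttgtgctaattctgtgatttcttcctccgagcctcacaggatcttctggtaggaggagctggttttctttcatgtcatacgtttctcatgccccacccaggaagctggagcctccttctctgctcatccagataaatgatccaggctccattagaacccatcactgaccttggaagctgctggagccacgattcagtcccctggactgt
IL36RN: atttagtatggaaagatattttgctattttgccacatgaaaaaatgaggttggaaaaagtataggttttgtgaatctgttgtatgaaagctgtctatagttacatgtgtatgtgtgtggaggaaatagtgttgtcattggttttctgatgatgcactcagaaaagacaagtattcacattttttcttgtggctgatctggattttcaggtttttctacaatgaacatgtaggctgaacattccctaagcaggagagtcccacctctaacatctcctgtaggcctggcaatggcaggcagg

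The IL-36 genes were also set against the keratinocyte marker sum of each library. In knockdown 2 this sum was 1234 CPM, with 531 CPM of KRT14 and 274 CPM of KRT5. In control 1 it was 535 CPM, with 281 CPM of KRT14 and 109 CPM of KRT5. Whether keratinocytes made these transcripts was not tested. Per 10000 CPM of summed keratinocyte markers, IL36RN held 17.9, 10.6, 51.4 and 5.56 CPM in knockdown, against 0, 0.819, 0.233 and 0.0967 CPM in control. On this scale the groups did not overlap, since knockdown 2, with 40 IL36RN counts and a low marker sum, stood above every control library. IL36G likewise held 2.54, 2.64, 29.1 and 1.18 CPM per 10000 CPM of markers in knockdown, against 0, 0.251, 0.669 and 0.106 CPM in control, without overlap. Such a lack of overlap on the higher side occurred in 2 of the 8 tested family genes and in 0.113% of all genes tested. The knockdown 2 value of IL36G rests on 10 counts and the control 1 values of both genes on 0. A count of 0 in control 1 allows up to 0.0816 CPM, beside a marker sum of only 535 CPM there. Scaled alike, this limit lies above the 1.18 of knockdown 4 for IL36G, so that lack of overlap is not established. For IL36RN the limit lies below every knockdown value. IL36A overlapped on this scale, at 4.75, 0, 1.54 and 40.8 in knockdown and 2.03, 0.00546, 0.145 and 0 in control, where the 2.03 of control 1 rests on 4 counts. A fit with the log2 keratinocyte sum as a covariate, here and below, was not planned in advance. Its log2 fold changes were 6.21 for IL36RN (SE 1.12, edgeR adjusted p = 0.87), 5.00 for IL36G (SE 1.42, edgeR adjusted p = 0.896) and 8.78 for IL36A (SE 3.61, edgeR adjusted p = 0.896).

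Of the IL-1 branch, IL1A and its antagonist gene IL1RN were both highest in knockdown 4 and lowest in knockdown 2 and control 1, while IL1B was highest in control 3. IL1A encodes IL-1 alpha, an alarmin active without cleavage, at 112773925 to 112784493 of chromosome 2, minus strand. It held 16.9, 0.163, 21 and 156 CPM in knockdown, against 0.109, 6.39, 2.95 and 9.17 CPM in control. Knockdown 1, 3 and 4 exceeded every control library, and knockdown 2 and control 1 held 5 and 4 counts. The log2 fold change of 3.54 (SE 1.61) missed the threshold (edgeR adjusted p = 0.981) and was 1.96 without knockdown 4. With the keratinocyte sum as a covariate it was 1.57 (SE 0.947, edgeR adjusted p = 0.896). Per 10000 CPM of keratinocyte markers, IL1A lay between 1.26 and 2.2 in knockdown 1 to 3 and between 1.08 and 2.1 in control, and only knockdown 4, at 15.3, stood apart.

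IL1RN encodes the IL-1 receptor antagonist, of which keratinocytes make an intracellular form as well as the secreted one, and spans 113099360 to 113134014 on the plus strand. It held 728, 1.96, 335 and 2184 CPM in knockdown, against 1.58, 455, 156 and 27 CPM in control. The groups overlapped widely, with control 2 above knockdown 3, and the lowest and highest libraries differed 1385-fold. The log2 fold change was 2.57 (SE 1.74, edgeR adjusted p = 0.981), and 0.33 with the keratinocyte sum as a covariate (SE 1.02, adjusted p = 0.973). It ran from 1.67 without knockdown 4 to 4.01 without control 2.

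Promoter windows of IL1A and IL1RN are shown because both hold the AP-1 letters TGANTCA, given in capitals. The IL36A window holds none of the motifs searched for, and IL18 has no window. Positions are chr2:112784444-112784743 on the minus strand and chr2:113117721-113118020 on the plus strand, and the RefSeq start used for IL1RN lies within the gene's full span. IL1A has the motif at -12 and at 39 relative to the start and IL1RN at -223. These letters occur in 7.71% of 35116 RefSeq windows of this length, the fixed NF-kB pattern in 1.91% and TTGCNNAA in 10.5%. TTGCNNAA stands in the windows of IL1B, at -215, and IL37, at -56. A match is a description of letters and shows no binding. Its bearing on transcript levels was not tested.
IL1A: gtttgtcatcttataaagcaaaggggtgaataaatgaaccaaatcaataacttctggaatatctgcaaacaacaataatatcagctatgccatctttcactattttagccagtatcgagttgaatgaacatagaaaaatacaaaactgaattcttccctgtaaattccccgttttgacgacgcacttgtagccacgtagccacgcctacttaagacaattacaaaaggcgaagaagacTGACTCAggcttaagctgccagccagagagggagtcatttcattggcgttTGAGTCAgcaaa
IL1RN: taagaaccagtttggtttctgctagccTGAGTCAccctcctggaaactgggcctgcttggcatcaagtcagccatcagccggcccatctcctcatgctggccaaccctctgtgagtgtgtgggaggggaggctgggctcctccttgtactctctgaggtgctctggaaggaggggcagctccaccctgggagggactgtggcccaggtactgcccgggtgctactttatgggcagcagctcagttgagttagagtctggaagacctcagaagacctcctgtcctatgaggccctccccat

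IL1B encodes IL-1 beta, which needs cleavage by caspase-1 and is made mainly by myeloid cells, and lies from 112829751 to 112836779 on the minus strand. It held 16, 1.5, 3.37 and 7.32 CPM in knockdown, against 2.58, 11.3, 26 and 6.34 CPM in control. The groups overlapped in part, with control 3 above every knockdown library and knockdown 2 below every control library. The log2 fold change was -0.37 (SE 0.839, edgeR adjusted p = 0.996), and 0.31 without control 3. Leukocyte markers summed to 125, 14303, 135 and 70.1 CPM in knockdown and 9171, 610, 181 and 262 CPM in control, dominated by LYZ, which serous glands also make, at 14122 CPM in knockdown 2 and 9060 CPM in control 1. CSF1R, the receptor for macrophage colony-stimulating factor, held 15.2 to 41.4 CPM in knockdown and 34.2 to 191 CPM in control, and CD68 was at 0.329 CPM or less everywhere. PTPRC, carried by leukocytes in general, held 11.8 to 30.4 CPM in knockdown and 11 to 75.9 CPM in control. CSF3R, the G-CSF receptor of neutrophils, held 0.877 to 2.15 CPM in knockdown and 3.92 to 18.9 CPM in control. CSF3R and FCGR3B were highest in control 3, as IL1B was, whereas PTPRC, CD14, CD163, CSF1R, CD3E, TYROBP and ITGAM were highest in control 2. The part of leukocytes in IL1B was not tested.

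**Figure D2:**
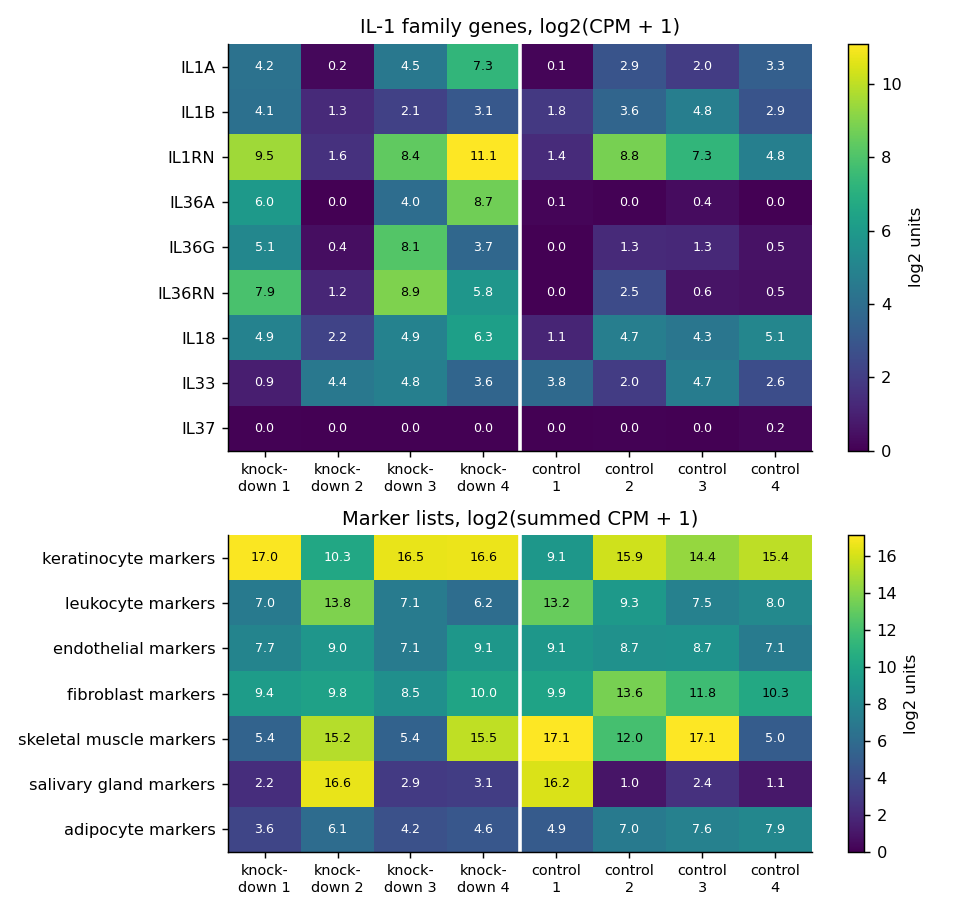
The upper panel gives log2(CPM + 1) of the 9 genes and the lower panel log2(summed CPM + 1) of 7 marker lists, by library, with knockdown left of the white line and control right of it. Knockdown 2 and control 1 are low in keratinocyte markers, high in salivary gland markers, and the lowest of their groups for IL1A, IL1B, IL1RN and IL18.

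The antagonist transcript exceeded the agonist transcript in most libraries, and the ratio is given without a test. IL1RN over IL1A was 43, 12, 16 and 14 in knockdown, against 14.5, 71.2, 53.1 and 2.94 in control. The mean log2 ratio was 4.20 in knockdown and 4.32 in control, a difference of -0.12 beside a pooled SD of 1.6. IL1RN over IL1B was 45.4, 1.3, 99.3 and 298 in knockdown, against 0.61, 40.3, 6.02 and 4.25 in control, with the 2 gland-rich libraries lowest in their groups. IL36RN over IL36G was 7.05, 4, 1.76 and 4.69 in knockdown, against 3.26, 0.348 and 0.917 in controls 2, 3 and 4, while control 1 held neither gene. The mean log2 IL36RN ratio was 1.97 in knockdown and 0.02 in control (pooled SD 1.21, n = 4 and 3), and control 2 lay within the knockdown range. IL36A, an agonist gene of the same receptor, was not used in a ratio. In knockdown 4 it exceeded IL36RN, at 415 against 56.6 CPM, and in control 1 at 0.109 against 0 CPM. In the other libraries IL36RN was above IL36A. All ratios are of CPM and not of molecules, since the transcripts differ in length.

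**Figure D3:**
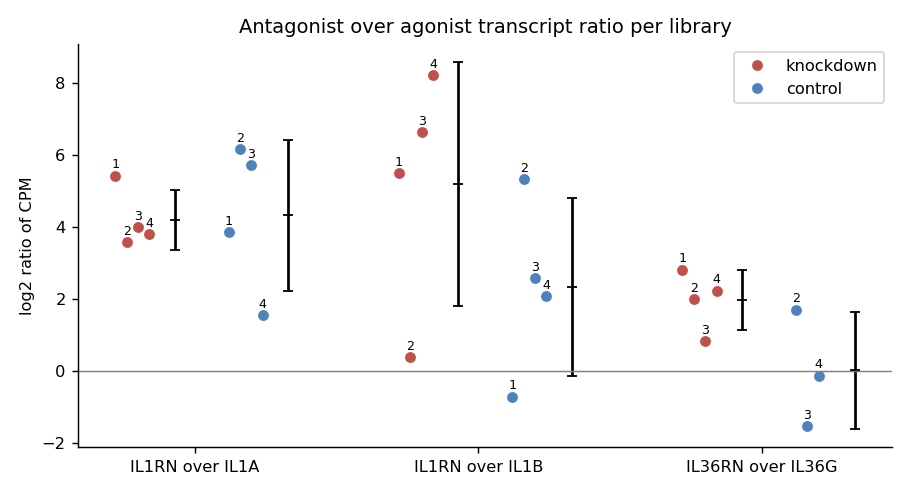
Points give the log2 ratio of antagonist to agonist CPM in each library, red for knockdown and blue for control, numbered by replicate, with the mean ± SD beside each group. IL1RN over IL1A overlaps between labels, and 2 of 3 control values of IL36RN over IL36G lie below the lowest knockdown value of 0.82.

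IL18 and IL33 followed different patterns from each other. IL18 encodes a caspase-1 dependent cytokine stored in resting epithelium at chromosome 11, 112143260 to 112164094, minus strand. It held 29.3, 3.72, 29 and 76.2 CPM in knockdown, against 1.2, 25.5, 19.3 and 33 CPM in control. Of the 8 libraries, 6 lay between 19.3 and 76.2 CPM, and the low ones were the gland-rich knockdown 2 and control 1. The log2 fold change was 1.06 (SE 0.961, edgeR adjusted p = 0.981), and 0.24 with the keratinocyte sum as a covariate (SE 0.361, adjusted p = 0.952). GENCODE 29 places a protein-coding gene across IL18 on the other strand, and without a stated strand setting their reads could be mixed. The same limit holds for IL36G, which a processed pseudogene, HMGN2P23, overlaps on the other strand.

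IL33 encodes an alarmin kept in the nucleus of endothelial, fibroblastic and some epithelial cells and lies on the plus strand of chromosome 9 from 6215149 to 6257983. It held 0.897, 20.7, 26.7 and 11.4 CPM in knockdown, against 12.7, 2.95, 24.6 and 5.08 CPM in control. Here the gland-rich libraries were not low, and knockdown 1, with the most keratinocyte transcripts, was lowest. The log2 fold change was 0.63 (SE 0.947, edgeR adjusted p = 0.993), and -0.08 without knockdown 3. Endothelial markers were lowest in control 4 and knockdown 3, at 136 and 139 CPM, and knockdown 3 held the most IL33. VWF, the endothelial clotting factor, ran from 85.8 to 294 CPM in knockdown and from 68.5 to 277 CPM in control. The part of these cells in IL33 was not tested.

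IL37, which encodes a member that dampens inflammation, lies between IL1B and IL36G on chromosome 2 from 112911165 to 112918882. It had 2, 0, 0 and 1 counts in knockdown, against 0, 2, 0 and 6 counts in control. All values but that of control 4 were below the limit that a count of 0 allows, so it was not detectable at this depth in 7 libraries and no fold is given.

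Per kilobase of exon, the leading family gene differed between libraries. Values here are CPM per kilobase (RPKM), with exon lengths from GENCODE 29, which may differ from the annotation counted. IL1RN led in knockdown 1 and 4 at 224 and 671 RPKM, with IL36RN and IL36A at 73 and 71.9 RPKM in knockdown 1 and IL36A at 468 RPKM in knockdown 4. IL36G led in knockdown 3 at 201 RPKM, ahead of IL36RN at 148 and IL1RN at 103 RPKM. IL33 led in the gland-rich knockdown 2 and control 1, at 6.35 and 3.9 RPKM. IL1RN led in controls 2 and 3 at 140 and 48 RPKM, and IL18 in control 4 at 12.6 RPKM, with IL1RN next at 8.28 RPKM. The 3 libraries in which an IL-36 gene passed 10 RPKM were all labelled knockdown.

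Without the 2 gland-rich libraries, a fit added after seeing the data, 3 knockdown and 3 control libraries remained. The groups then did not overlap for IL1A, IL36A, IL36G and IL36RN, 4 of the 8 tested family genes and all higher in knockdown. Of all tested genes, 3.94% did so on that side and 13% on the lower side. For all 4 genes, knockdown 2 was the knockdown library that had overlapped control, so this count depends on leaving it out. IL36A again met the filter almost entirely through knockdown libraries, with 10 counts or fewer in each control. The ranges were 16.9 to 156 CPM in knockdown and 2.95 to 9.17 CPM in control for IL1A, 14.7 to 415 and 0 to 0.31 for IL36A, 12.1 to 278 and 0.461 to 1.49 for IL36G, and 56.6 to 490 and 0.423 to 4.85 for IL36RN. The edgeR adjusted p was 0.45, 0.271, 0.323 and 0.314 in that order, and 0 of the 8 passed, where 0.00459% of genes did. Keratinocyte markers summed to 95253 to 134310 CPM in these knockdown libraries and to 21327 to 59284 CPM in these control libraries, also without overlap. Muscle markers were above 1% in knockdown 4 and control 3. A fit without all 4 libraries over 1% muscle or gland markers, also not planned in advance, left knockdown 1 and 3 and controls 2 and 4. Log2 fold changes were then 11.35 for IL36A, 7.87 for IL36G, 7.63 for IL36RN and 1.75 for IL1A. In that fit edgeR again called 0 of the 8 (adjusted p = 0.163, 0.254, 0.255 and 0.36).

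**Figure D4:**
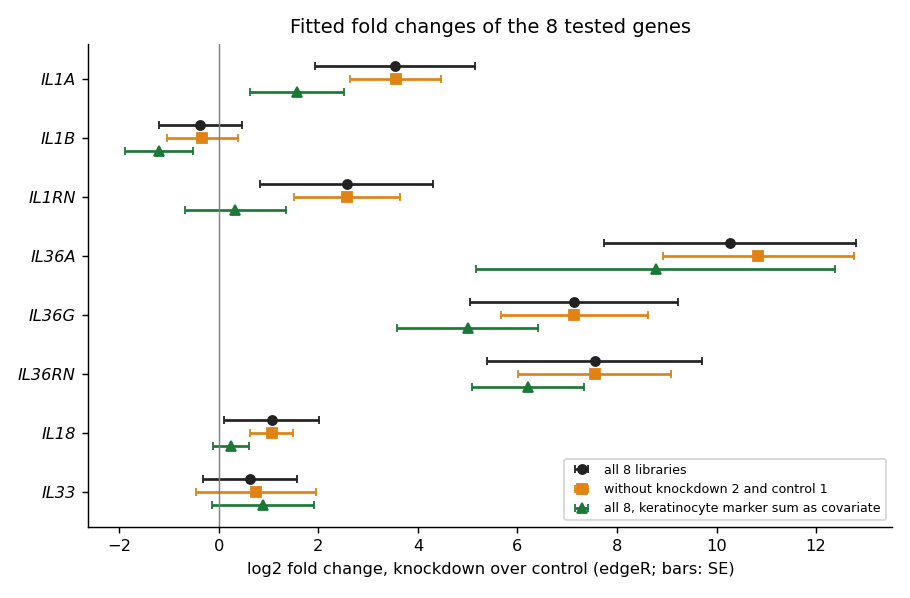
Fitted log2 fold changes of knockdown over control for the 8 tested genes, from all 8 libraries (circles), without knockdown 2 and control 1 (squares) and with the keratinocyte marker sum as a covariate (triangles). Bars are the SE derived from the edgeR F statistic, not a standard error estimated by the model. The fits drawn as squares and triangles were not planned in advance. IL36A, IL36G and IL36RN lie at 5.00 or above in all 3 fits, whereas IL1RN is at 0.33 and IL18 at 0.24 with the covariate.

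For each tested gene, the 3 genes of most similar profile were taken among 16580 named genes with a mean of at least 1 CPM, by the root mean square difference of centred log2(CPM + 1) over the 8 libraries. IL36RN was nearest LCE3D, a late cornified envelope gene, at 0.40 (median over all candidates 3.55), then PI3 and SERPINB7 at 0.91 each. IL36G was nearest LYPD5 at 0.63, LCE3A at 0.69 and SERPINB12 at 0.75 (median 2.88). IL36A was nearest SPINK7 at 0.88, RPTN, which encodes the cornified protein repetin, at 1.11 and DYNAP at 1.12 (median 3.34). IL1RN was nearest the protease inhibitor gene A2ML1 at 0.64, SCEL at 0.97 and SPINK5 at 0.99 (median 3.48), and IL1A was nearest EVPL, a cornified envelope plakin, at 0.75, CLIC3 at 0.82 and LY6G6C at 0.83 (median 2.31). IL18 was nearest CRYBG1 at 0.28, SEMA3F at 0.37 and ZNF750 at 0.44 (median 1.64). IL1B was nearest the cell cycle and DNA repair genes TICRR, E2F8 and NEIL3, at 0.42 to 0.47 (median 1.21), and IL33 nearest the mitochondrial mRNAs MT-CO1, MT-ND1 and MT-ND5, at 0.49 to 0.62 (median 1.48). Genes that vary less have smaller distances to all others, so distances are read against each gene's own median. The points of these profiles are the same 8 libraries, which differ in cell type content.

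The other ligands of the family followed the IL-36 genes at lower level and did not enter the fit. IL36B, the third IL-36 agonist gene, held 1.31, 0, 2.08 and 1.48 CPM in knockdown, against 0, 0.0324, 0 and 0 CPM in control. IL1F10, which encodes IL-38, held 2.82, 0, 9.68 and 1.15 CPM in knockdown, against 0, 0.0647, 0.186 and 0 CPM in control. Knockdown 2 lay at 0 for both, so the groups overlapped.

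Of 9 receptor and soluble inhibitor genes, 3 were fitted higher and 6 lower in knockdown, with a median log2 fold change of -0.08 beside -0.05 for all genes tested, and edgeR called 0. IL1R1, the signalling IL-1 receptor, held 43.9 to 93.5 CPM in knockdown and 44.8 to 96.8 CPM in control. IL1RAP, an accessory chain shared by several but not all of these receptors, held 13.3 to 54 CPM in knockdown and 6.71 to 80.7 CPM in control. IL1RL2, the receptor of IL-36 and chosen here after its values were seen, held 13.4, 6.13, 12.3 and 14.1 CPM in knockdown, against 1.6, 7.33, 5.99 and 6.31 CPM in control (log2 fold change 1.40, SE 0.523, edgeR adjusted p = 0.981).

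Processing and signalling genes were likewise not called. Of 15 tested inflammasome and protease genes, 8 were fitted higher and 7 lower (median 0.16), and the neutrophil protease genes ELANE and PRTN3 were too low to test. CAPN1 and CAPN2, whose calpain products can cleave pro-IL-1 alpha, were the most abundant, at 208 to 715 and 195 to 455 CPM in knockdown and 169 to 682 and 215 to 547 CPM in control. Of 17 signalling genes, 13 were fitted higher and 4 lower (median 0.45). IRAK2, a kinase of the receptor complex, was the one gene of the list whose groups did not overlap, at 18.4, 10.3, 39.7 and 18.5 CPM in knockdown, against 6.31, 9.22, 6.33 and 2.19 CPM in control (log2 fold change 2.14, SE 0.634, edgeR adjusted p = 0.981). Such separation on the higher side occurred in 0.882% of tested genes. IRAK1 held 74.2 to 186 CPM in knockdown and 44.2 to 275 CPM in control, and NFKBIA, the NF-kB inhibitor, 77.1 to 255 and 49.7 to 290 CPM.

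Among 22 genes that IL-1 or IL-36 can induce, 18 were tested, 11 fitted higher and 7 lower (median 0.41), and edgeR called 0. LCN2, an iron-binding antimicrobial protein, held 98.1, 249, 172 and 173 CPM in knockdown, against 58, 12.7, 1.99 and 12.1 CPM in control (log2 fold change 3.00, SE 0.951, edgeR adjusted p = 0.981). Its groups did not overlap, as for 0.882% of tested genes on the higher side, and its highest libraries in each group were the gland-rich ones, unlike the IL-36 genes. DEFB4A, an epithelial beta-defensin with a near-identical copy, held 74.4, 0.13, 26.6 and 0.11 CPM in knockdown and at most 0.062 CPM in control. It was too low in most libraries to be tested. Knockdown 2 and 4 lay close to the limit that a count of 0 allows, which is 0.0978 CPM in knockdown 2, so their difference from control is not larger than counting error. Of the genes fitted lower, 4 chosen after their values were seen were CXCL1, CXCL2 and CXCL3, which encode neutrophil-attracting chemokines, and IL6. Their log2 fold changes were -1.92 (SE 1.06), -1.84 (SE 0.918), -1.62 (SE 0.86) and -3.80 (SE 1.97), each with an edgeR adjusted p of 0.981. The other chemokine genes tested in this list were fitted higher, so the chemokines did not move as one class. CXCL5 was at 0.30 (SE 1.43), CXCL8 at 0.08 (SE 1.09) and CCL20 at 3.55 (SE 1.61), with edgeR adjusted p of 0.997, 0.999 and 0.981. IL6 held at most 1.08 CPM in knockdown, against 22.7 CPM in control 3 and at most 0.326 CPM in the other controls. The calgranulins S100A8 and S100A9 were the most abundant, at 29.3 to 9492 and 25.4 to 7562 CPM in knockdown and 6.42 to 1686 and 3.26 to 1549 CPM in control, with a log2 fold change of 3.18 (SE 1.82) for S100A8 and 3.30 (SE 1.82) for S100A9 and an edgeR adjusted p of 0.981 for each.

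**Figure D5:**
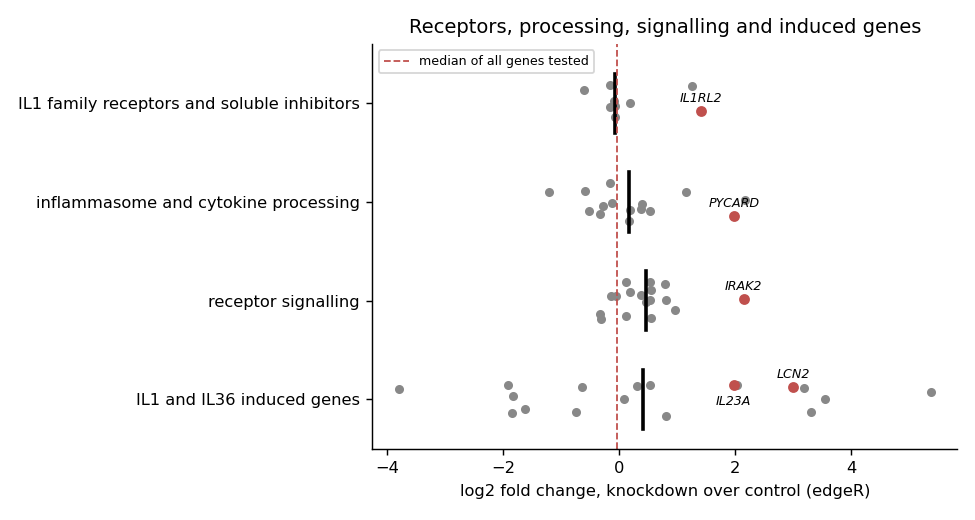
Each point is the edgeR log2 fold change of one tested gene, in 4 lists drawn around the family, with a black bar at each list's median and the dashed line at the median of all genes tested (-0.05). Genes with an unadjusted p under 0.05 are in red and named, and none passed after adjustment over all genes.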

How the data were processed

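RNA was sequenced from 8 libraries, 4 labelled knockdown and 4 labelled control. The authors deposited one table of raw counts per gene, not normalised. The submitters' processing notes name hg38, STAR and Subread's featureCounts. Their versions, the annotation and any strand option were not given in the sources used here. In the file header, KO stands where the titles write KD, and columns were matched to libraries by group and number. Symbols were matched by Ensembl identifier without version. The labels name polyA RNA, but their extraction text describes ribosomal RNA depletion.

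CPM was computed from column totals. The main test was the quasi-likelihood test of edgeR 4.0.16 (R 4.3.3) after filterByExpr and TMM scaling. Calls needed an adjusted p (Benjamini-Hochberg, 21192 genes) under 0.05. The SE printed is the absolute log2 fold change divided by the square root of the F statistic. It is not a standard error estimated by the model. TMM factors ran from 0.75 to 1.191. DESeq2 1.42.0, limma-voom (limma 3.58.1), other scalings and filters, a replicate block and leaving out libraries were alternatives. Intervals and floors (3 counts) cover counting error only.

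The genes named are the 9 members, COL1A1, the 3 nearest profiles of each tested member and, of each pathway list, the 2 most abundant, any called and any non-overlapping genes. Of marker lists they are drawn from the 2 most abundant, KRT5, PTPRC, PECAM1 and CSF3R. Others, among them IL1RL2, CD68, CXCL1 and the leukocyte genes given by their highest library, were chosen after their values were seen. Members and lists were chosen with earlier results of these data known. Promoter windows are from RefSeq (GRCh38.p14), which held 8 of the 9 genes; IL18 has none. Same-numbered libraries were not treated as pairs.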

Additional observations from a re-analysis of the deposited data

Results flagged for a closer look

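Within groups of 4, a library was singled out when its gap to the nearest other library, over the whole range of the group, passed Dixon's 95% limit. Of 20 groups examined, 5 held such a library. The limit flags about 1 in 20 groups by chance where values are normal and groups independent. CPM here is strongly skewed and the groups reuse the same 8 libraries, so the count of 5 is not read against that rate. Knockdown 4 stood far above the other knockdown libraries for IL1A, at 156 CPM, and for IL36A, at 415 CPM. Knockdown 3 did so for IL36G, at 278 CPM. Among control libraries, control 2 stood far above the rest for IL36RN, at 4.85 CPM, and for the siRNA target COL1A1, at 8182 CPM.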

How the results depend on the processing

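Over 18 alternatives, edgeR and limma-voom called 0 of the tested family genes throughout, and DESeq2 called 3. The count of all genes called was 0 in the fit reported, 146 with DESeq2, 0 to 1 with each library left out and 1 without the 2 gland-rich libraries. Without those 2, and without knockdown 2 alone, that gene was SPRR2F, named after its values were seen. With the replicate number as a block, edgeR called 0 genes and 0 family genes (352 genes, 1 of them a family gene, at an unadjusted p under 0.05), and the log2 fold change of IL36RN was 8.59 (SE 3.63, adjusted p = 1). Same-numbered libraries deviated in opposite directions from their group means (correlations of -0.642 to -0.369 over genes). Since libraries differ in cell type content, this does not decide whether same-numbered libraries share a batch. Of 143 refitted log2 fold changes of family genes, 137 kept direction and side of the threshold, 3 passed it with DESeq2 and 3 changed sign. With each library left out, IL1B ran from -1.26 to 0.31 and IL33 from -0.08 to 1.17. IL1B turned to 0.31 without control 3 and to 0.55 without the 4 libraries over 1% muscle or gland markers, and IL33 to -0.08 without knockdown 3. The cause was not tested. Filtering at 1 CPM in 4 libraries left IL36A untested. The antagonist to agonist ratios moved by less than their spread under every pseudocount and with each library left out, between -1.04 and 0.49 for IL1RN over IL1A, 1.85 and 4.46 for IL1RN over IL1B, and 1.18 and 2.79 for IL36RN over IL36G. Depth limits IL37, the control values of IL36A, and IL36G and IL36RN in control 1, where both had 0 counts.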
